A study of Rattus norvegicus with 8 samples.

Results

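The cells described here were S100a8/S100a9-rich neutrophils of the rat spinal cord, chosen by a rule on the unique molecular identifiers (UMIs) of single cells. A cell was kept when mitochondrial genes held at most 10% of its UMIs and it had at least 500 UMIs. It was a member when S100a8 and S100a9 held at least 12% of its UMIs and Retnlg and Mmp8 together had at least 2. The rule found 2740 members among 63769 kept cells (4.30%) of 68658 deposited.

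The study sequenced single cells of the spinal cord of female Wistar rats, 8 weeks of age, 7 days after a 10 g weight was dropped on the exposed cord. The drop height set mild, moderate and severe injury, and sham rats had the laminectomy alone. Each group had 2 libraries made with the 10x Chromium 3' kit (V3), numbered replicate 1 and 2. The study speaks of as many sequenced spinal cords as there are libraries, while the labels tie no library to an animal, and p-values measure the spread between these libraries. The libraries held from 31482153 UMIs in sham replicate 2 to 131045446 in severe replicate 2.

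Neutrophils are short-lived white blood cells that are made in the bone marrow, circulate in blood and enter injured tissue. While they mature they fill a series of granules, beginning with azurophil granules and going on to specific granules, gelatinase granules and secretory vesicles. S100a8 and S100a9 are small calcium-binding proteins that pair as calprotectin, the most abundant protein of the neutrophil cytosol. Mmp8 is the neutrophil collagenase, Retnlg a small secreted protein of the resistin family made in bone marrow and blood neutrophils, and Pglyrp1 a granule protein that binds bacterial cell wall. In the injured cord neutrophils are among the first blood cells to arrive.

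The upstream sequences are shown of 4 genes that mark these cells or, for Ngp, a minority among them. Of the sequences looked up and found, these 4 are the ones that held a match marked below. Each is the 250 bases before the RefSeq start of transcription in GRCr8, a later assembly than the Rnor_6.0 of the counts, printed 5′ to 3′ on the gene's own strand. Capitals mark matches on either strand to TTGCNNAA, the letters of a C/EBP-type site, or to GAGGAA, those of a PU.1-type site, which do not overlap here. They lie at chr2:178490623-178490872, minus strand (S100a9), chr8:13008640-13008889, plus strand (Mmp8), chr1:87659613-87659862, plus strand (Pglyrp1) and chr8:119272355-119272604, plus strand (Ngp).
S100a9: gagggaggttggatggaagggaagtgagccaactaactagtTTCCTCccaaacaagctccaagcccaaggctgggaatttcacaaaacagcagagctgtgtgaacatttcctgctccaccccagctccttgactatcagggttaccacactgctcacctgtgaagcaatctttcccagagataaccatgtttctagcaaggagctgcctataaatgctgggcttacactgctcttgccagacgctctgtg
Mmp8: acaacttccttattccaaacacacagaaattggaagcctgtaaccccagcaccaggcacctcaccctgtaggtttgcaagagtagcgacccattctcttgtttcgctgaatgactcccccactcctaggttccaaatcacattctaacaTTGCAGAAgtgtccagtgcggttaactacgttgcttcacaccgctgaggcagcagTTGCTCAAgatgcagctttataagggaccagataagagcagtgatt
Pglyrp1: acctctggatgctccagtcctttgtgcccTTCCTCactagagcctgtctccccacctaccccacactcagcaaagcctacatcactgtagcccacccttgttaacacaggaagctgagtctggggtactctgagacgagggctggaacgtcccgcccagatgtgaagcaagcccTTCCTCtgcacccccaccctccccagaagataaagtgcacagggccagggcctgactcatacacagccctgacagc
Ngp: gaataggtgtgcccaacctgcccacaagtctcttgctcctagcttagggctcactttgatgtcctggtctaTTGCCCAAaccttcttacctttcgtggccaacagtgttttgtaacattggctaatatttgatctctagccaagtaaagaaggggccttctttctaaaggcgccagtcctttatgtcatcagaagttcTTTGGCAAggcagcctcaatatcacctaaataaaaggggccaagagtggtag

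TTGCNNAA had 2 matches before Mmp8, at bases 101 to 94 and 46 to 39 ahead of the start, and 2 before Ngp. GAGGAA had 1 match before S100a9 and 2 before Pglyrp1. Neither was found in the same window before Retnlg or Camp, which encodes the cathelicidin of specific granules. Over 33469 RefSeq windows of this length, 9.22% held TTGCNNAA and 23.3% held GAGGAA, so a match describes the letters and not a bound site. The RefSeq table used here matched 6 of the 7 genes looked up, all but S100a8.

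The members were very unevenly spread over the libraries. Sham replicate 1 held 2639 of them, 96.3% of all members and 24.6% of its kept cells (95% Wilson interval 23.8 to 25.4). The other 7 libraries held 101. Sham replicate 2 had 1 member (0.0370%), mild replicates 1 and 2 had 16 (0.172%) and 7 (0.0776%), moderate replicates 25 (0.216%) and 15 (0.207%), and severe replicates 19 (0.449%) and 18 (0.200%). The Wilson and binomial intervals given cover counting error only.

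Sham replicate 1 also stood apart from sham replicate 2 in its other cells. T cells were called by Cd3 genes and B cells by Cd79b and Ms4a1. Sham replicate 1 had 390 T cells (3.63% of 10736 kept cells) and 250 B cells (2.33%), against 8 (0.296% of 2702) and 6 (0.222%). Cells with over 0.5% of their UMIs on C1qa, C1qb and C1qc, the complement genes of microglia and macrophages, made up 6.94% of its kept cells against 86.3%. It had 104 cells with over 30% haemoglobin UMIs against 7. The part of blood in the tissue or of the label itself in this library was not tested. The 24.6% share and any sham value that rests on it therefore describe the library labelled sham replicate 1, and cannot be told apart from an effect of that library alone. 

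The mean share was 12.3% in the 2 sham libraries and 0.220% in the 6 injured libraries. The difference of 12.1 percentage points had p = 0.25 in an exact two-sided permutation test, whose smallest possible p with 28 arrangements was 0.0357. Without sham replicate 1 the difference was -0.183 points (exact permutation p = 0.286, smallest possible 0.143). The direction between sham and injured libraries rested on that library. By injury, the share was 0.125% ± 0.0670 (SD, n = 2) in mild, 0.212% ± 0.00631 in moderate and 0.324% ± 0.176 in severe libraries.

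**Figure D1:**
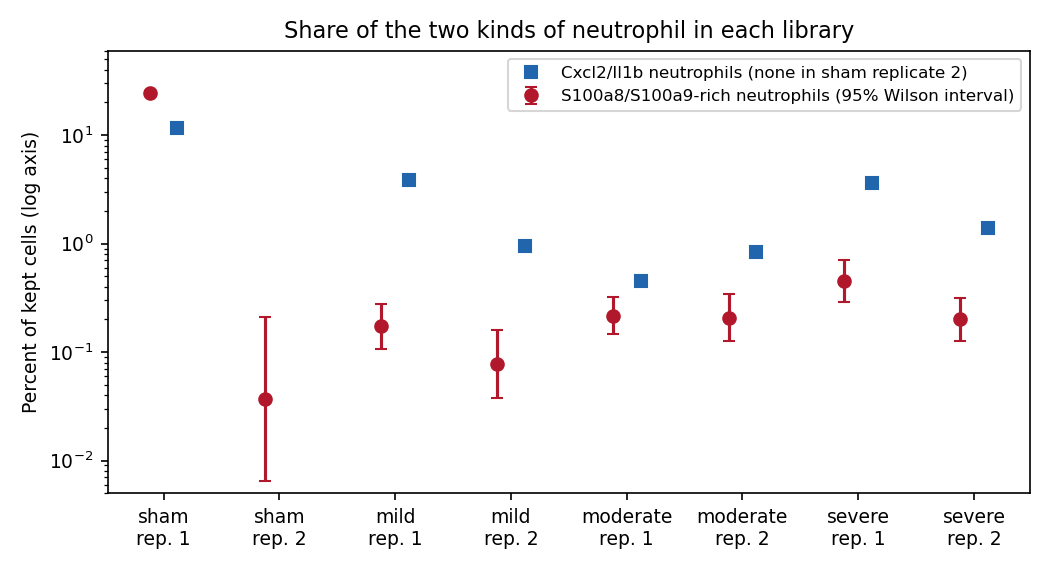
Percent of kept cells in each library (log axis) that were S100a8/S100a9-rich neutrophils (red, with 95% Wilson intervals) or Cxcl2/Il1b neutrophils (blue squares). Sham replicate 1 stands at 24.6%, and the other 7 libraries lie between 0.0370% and 0.449%.

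The genes that chose the members are given as a description. S100a8 and S100a9 held a median of 34.3% of the UMIs of a member in sham replicate 1 and up to 59.2%. In the injured libraries the median was 16.8% and 18.5% in mild, 22.2% and 15.3% in moderate and 27.8% and 17.9% in severe replicates 1 and 2. T cells and B cells of sham replicate 1, which should lack these transcripts, had medians of 0.364% and 0.478%. Members held 84.2% of all S100a8 and S100a9 UMIs of that library.

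The ratio within the pair differed between libraries. For each S100a8 UMI the members of sham replicate 1 held 2.67 S100a9 UMIs, those of mild replicate 1 held 2.18, those of moderate replicates 1 and 2 held 3.40 and 3.91, and those of severe replicates 1 and 2 held 2.15 and 1.89. Neutrophils outside the rule, described later as Cxcl2/Il1b neutrophils, had 2.68, 2.18, 3.46, 5.07, 2.29 and 1.92 in the same libraries. Within a library the values of both kinds of cell lay close together, except in moderate replicate 2.

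Retnlg and Mmp8 had a median of 23 UMIs together in a member of sham replicate 1, and of 22 and 12 in the severe replicates. The medians were 3.5 and 5 in mild and 6 and 3 in moderate replicates, close to the minimum of 2. Just inside the limit on S100a8 and S100a9, 55 cells at 12 to 13% had a median of 1907 UMIs, and 54 cells just outside it at 11 to 12% had 2130. With exactly 2 UMIs of Retnlg and Mmp8 there were 203 members, while 285 cells with 1 and 716 cells with 0 passed the other limits.

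**Figure D2:**
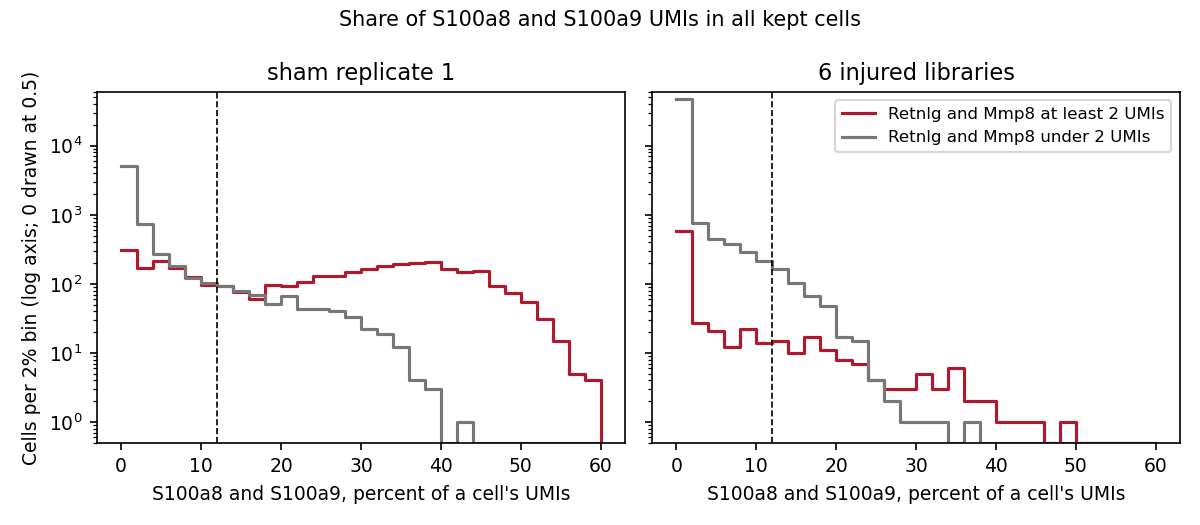
Number of kept cells (log axis, 2% bins, bins with no cell drawn at 0.5) by the percent of their UMIs on S100a8 and S100a9, in sham replicate 1 and in the 6 injured libraries, split by Retnlg and Mmp8. In sham replicate 1 the cells with at least 2 such UMIs form a broad hump right of the dashed 12% limit, and in the injured libraries they thin out past it with no hump.

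The depth of the members differed by library. Their median was 3473 UMIs and 832 genes in sham replicate 1, where all kept cells had a median of 2970.5 UMIs. In the injured libraries the median was 1023.5 and 705 UMIs in mild, 855 and 1277 in moderate and 4420 and 2172 in severe replicates, each below the median of all kept cells of its library. Mitochondrial genes held medians between 0.840% and 2.45% of the UMIs of a member over the 8 libraries. No cell barcode was shared between members of different libraries, and 5 to 37 were shared between the kept cells of a pair of libraries, at most 0.411% of the smaller one.

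The label was checked on markers the rule did not use, although Pglyrp1 had been picked as a marker of these cells from the same data. Levels are given as CPM, a gene's UMIs summed over the cells of a library, scaled to 1000000 UMIs outside S100a8, S100a9, Retnlg and Mmp8. Pglyrp1 stood at 4989.5 CPM in the members of sham replicate 1, against 79.2 in T cells and 81.3 in B cells. After each cell was thinned to 300 such UMIs, 70.2% of members had a Pglyrp1 UMI against 1.79% of T cells and 4.80% of B cells. Without thinning the shares were 98.3%, 14.9% and 18.0%, at medians of 3473, 4100 and 2845.5 UMIs. Free RNA gives UMIs in cells that do not express a gene, and the T cells and B cells serve as that background here.

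General neutrophil markers were present too. Il1r2, the decoy receptor for interleukin-1, was found in 34.4% of thinned members of sham replicate 1, against 1.79% of T cells and 3.60% of B cells (86.0%, 12.8% and 12.4% without thinning). Csf3r, the receptor for the growth factor G-CSF, was in 16.3% against 0.513% and 0.800% (69.8%, 6.15% and 8.00%). Cxcr2, the receptor for neutrophil chemokines, was in 13.9% against 0.513% of T cells and 0 of 250 B cells, which allows up to 1.20% (65.3%, 3.33% and 4%). Of the 16 surface receptor genes listed for mature neutrophils, Cxcr4 ran the other way and Fcgr3a was too rare to give a direction. After thinning Fcgr3a was in 6 of 2639 members (0.227%), 3 of 390 T cells (0.769%) and 1 of 250 B cells (0.4%). Without thinning the shares were 2.54%, 3.59% and 4%, with overlapping intervals. Cxcr4 was in 2.16% against 2.56% and 9.6% (14.8%, 36.2% and 65.6%). The other genes of that list were in a larger share of thinned members than of T or B cells. The cells carried most of these neutrophil markers, while their place in blood or tissue was not tested because no blood library was analysed here.

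Transcripts of other cells were present at low levels. In sham replicate 1, 19 of 2639 members had at least 5 UMIs of C1qa, C1qb and C1qc, 7 of Cd3 genes, 3 of Cd79b and Ms4a1, and 27 of haemoglobin genes. Pf4, a platelet chemokine, had at least 5 UMIs in 182 members. The 5 oligodendrocyte genes together stood at 2596 CPM in members, 10416 in Cxcl2/Il1b neutrophils, 3395 in T cells and 5998 in B cells of this library, so all these kinds of cell carried them. By list, the summed CPM in members of sham replicate 1 was 1493 for 4 erythroid genes, 799 for 4 platelet genes and 642 for 8 macrophage and microglia genes. It was 113 for 4 B cell, 105 for 4 monocyte, 33.2 for 3 endothelial, 23.1 for 4 astrocyte, 20.7 for 5 T cell and 0.149 for 4 eosinophil and mast cell genes.

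Granule genes were described in the order in which granules form. The azurophil genes differed among themselves. Mpo, the myeloperoxidase of azurophil granules, and Ctsg had 0 UMIs in members of every library with at least 10 members, and Prtn3 had 2 and Bpi 3 UMIs in sham replicate 1. Elane, neutrophil elastase, stood at 0 to 175 CPM, and Ctsc, which activates these proteases, at 70.7 to 671 CPM. In sham replicate 1 Elane was at 126 CPM in members, 10.2 in T cells and 31.5 in B cells. Specific granule genes were present and uneven. Ltf, lactoferrin, was at 0 in all these libraries, while Camp stood at 777 to 35871 CPM and Lcn2, which binds bacterial iron carriers, at 0 to 6874 CPM. Of the 3 granule lists the gelatinase granule and secretory genes had the highest summed level in sham replicate 1 (35203 CPM against 6345 and 303). The largest parts of that sum were Slpi, a protease inhibitor, at 11517 CPM and Lyz2, lysozyme, at 9084 CPM. Such sums depend on which genes were listed. Over the libraries with at least 10 members Slpi stood at 3693 to 22263 CPM and Lyz2 at 5647 to 33428 CPM.

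Within sham replicate 1, members were split by their share of S100a8 and S100a9 into 12 to 20% (326 cells), 20 to 30% (609), 30 to 40% (960) and 40% and over (744). These ranges belong to the measure that chose the cells, so the values carry no test. Median UMIs per cell were higher in each range than in the one before, 2444.5, 2814, 3474 and 4788, and the levels are per UMI outside the selecting genes. Anxa1, a protein stored in gelatinase granules that limits inflammation, stood at 2530.4, 4723, 8263 and 13082 CPM from the lowest to the highest range. Pglyrp1 stood at 1971, 3307, 4970.2 and 7557 CPM and Hp, haptoglobin, at 382, 669.9, 1328 and 2449 CPM. Camp and Lcn2 were flat at first and were highest in the top range, from 403 to 2016 and from 172 to 1331 CPM.

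Several inflammatory genes were lower in each range than in the one before. Cxcl2, a chemokine that draws neutrophils, stood at 8402, 4572, 1355 and 634 CPM and its relative Cxcl3 at 4465, 2115, 575 and 237 CPM. Ccl3, a chemokine for monocytes and lymphocytes, went from 1135 to 132 CPM between the lowest and highest range and Nfkbia, an inhibitor of NF-kB, from 2669.6 to 1010.1. Sod2 of the same list ran the other way, at 3597, 4401, 5540.3 and 6424 CPM, and Osm stood at 419, 486, 423 and 297 CPM. Slpi, from the gelatinase granule and secretory list, went from 21113 to 7724 CPM. Il1b, the inflammatory cytokine interleukin-1 beta, was highest in the 20 to 30% range. Isg15, an interferon target, peaked at 30 to 40% with 2033, 3573, 4518 and 3375 CPM over the ranges.

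**Figure D3:**
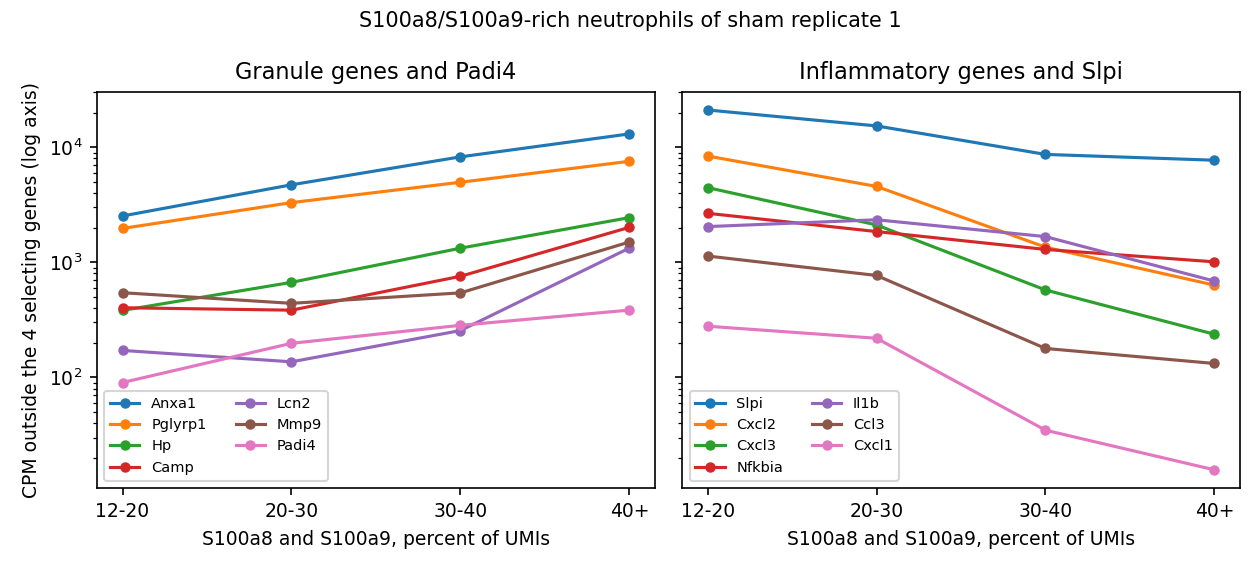
CPM of UMIs outside the 4 selecting genes (log axis) in members of sham replicate 1, summed over cells in 4 ranges of the S100a8 and S100a9 share. Anxa1, Pglyrp1, Hp and Padi4 are higher in each range than in the one before it, and Cxcl2, Cxcl3, Ccl3 and Cxcl1 are lower.

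To test genes the rule did not use, the members were compared with another kind of neutrophil within the same libraries. These Cxcl2/Il1b neutrophils had S100a8 and S100a9 at 1 to 12% of UMIs, at least 1 UMI of Csf3r or Cxcr2, at least 2 of Cxcl2 and Il1b, and at most 1% on Apoe and C1q genes. There were 2077, of which 59.9% came from sham replicate 1. Their median depth was 1857 UMIs in sham replicate 1 and 837 in mild replicate 1. It was 670 and 1015 in moderate and 1602.5 and 1663.5 in severe replicates 1 and 2. Members had a higher median in each of these libraries, and the part of free RNA in the shallower cells was not tested. UMIs were summed per library and kind of cell in the 6 libraries with at least 10 of each, which left out sham replicate 2 and mild replicate 2, and edgeR's quasi-likelihood test was run with the library as a block. Of 1515 genes tested, 474 (31.3%) were called at an adjusted p under 0.05, 246 (16.2%) higher and 228 (15.0%) lower in members. Without sham replicate 1, 1143 genes were tested, and 121 (10.6%) were higher and 88 (7.7%) lower. Of the 212 genes called higher with all libraries and tested again, 119 were called again, as were 81 of 169 called lower, and 0 of these 381 turned sign.

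The 10 higher genes chosen by rule included the granule and secretory genes Pglyrp1, Anxa1, Hp and Camp. Padi4, listed with them, encodes an enzyme that acts on histones and not a granule protein. In the order sham replicate 1, mild replicate 1, moderate replicates 1 and 2 and severe replicates 1 and 2, Pglyrp1 stood at 4989.5, 2332, 7112, 3576, 2158 and 3449.7 CPM in members. In the Cxcl2/Il1b neutrophils it stood at 774, 527, 418, 599, 149.8 and 319 CPM. Every member value lay above every value of the other cells (log2 fold change 3.10 ± 0.30 SE, n = 6 libraries, adjusted p = 1.84e-07). Without sham replicate 1 the log2 fold change was 3.12 (adjusted p = 1.61e-07). Pglyrp1 had been picked as a marker from these data, so its test is not independent of that choice.

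Anxa1 was at 8183, 2332, 5014, 4518, 15330 and 6389 CPM in members in the same order of libraries. It was at 1007, 741, 302, 499, 526 and 401 CPM in the other cells, and the ranges did not overlap (log2 fold change 3.47 ± 0.36 SE, n = 6 libraries, adjusted p = 4.61e-07). Hp, which binds free haemoglobin, was at 1398, 1272, 2565, 502, 5451 and 2381 CPM against 124, 339, 116, 14.3, 179 and 86.7 CPM, again with separate ranges (log2 fold change 3.95 ± 0.37 SE, n = 6 libraries, adjusted p = 1.84e-07). The rule that chose the named genes asked for the same direction in every library, so their 6 of 6 is a description. Over all genes tested, 165 (10.9%) were higher and 182 (12%) lower in members of every library.

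Camp had the largest log2 fold change of the 10 higher genes chosen by rule. It was at 1009.8, 777, 3323, 1129, 35871 and 8236 CPM against 281, 142, 93, 199.7, 142 and 205 CPM, and severe replicate 1 was far above the rest (log2 fold change 4.10 ± 0.61 SE, n = 6 libraries, adjusted p = 3.86e-05). Padi4, the enzyme that citrullinates histones when neutrophils release extracellular traps, was at 269, 283, 233, 62.7, 575 and 413 CPM in members. In the other cells it was at 39.9, 57.8, 69.7, 14.3, 21.9 and 27.4 CPM, so that moderate replicate 2 overlapped them (log2 fold change 3.17 ± 0.38 SE, n = 6 libraries, adjusted p = 2.92e-06). Slc2a3, a glucose transporter, was at 341, 141, 991, 502, 528 and 340.1 against 64, 62.6, 23.2, 42.8, 11 and 27.4 CPM with no overlap (log2 fold change 3.29 ± 0.41 SE, n = 6 libraries, adjusted p = 3.98e-06).

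The other higher genes by the same rule were LOC24906 (3.59), AABR07034362.2 (3.56), Stfa2 (3.07), a stefin-type protease inhibitor, and Rcsd1 (3.03), an actin-capping regulator, as log2 fold changes. All 4 were higher in 6 of 6 libraries with adjusted p of 1.84e-07, 3.68e-06, 2.27e-05 and 1.08e-05 in edgeR. Stfa2 belongs to a family of near-identical genes, so its reads could be shared with copies and its value is uncertain.

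**Figure D4:**
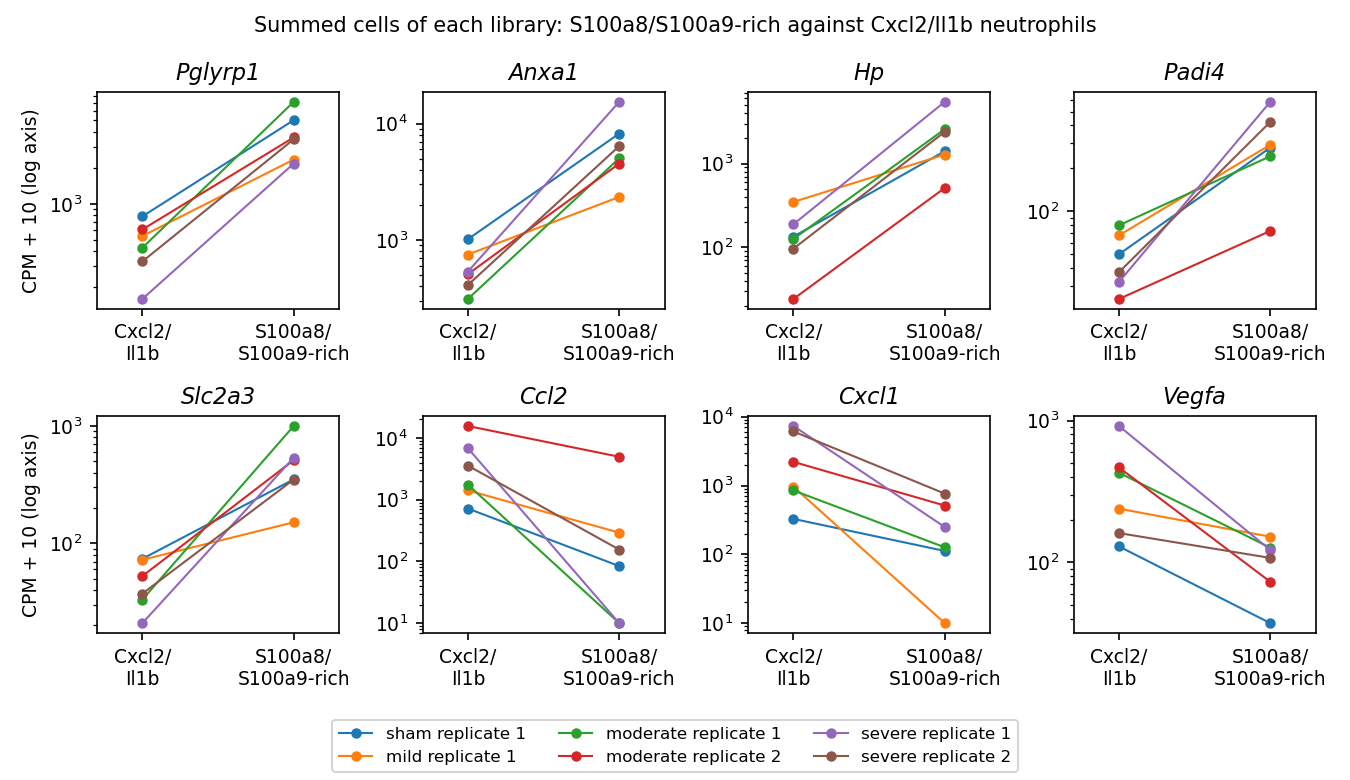
CPM + 10 (log axis) of 8 genes in summed Cxcl2/Il1b neutrophils (left) and summed S100a8/S100a9-rich neutrophils (right), with a line for each of the 6 libraries. All lines rise for Pglyrp1, Anxa1, Hp, Padi4 and Slc2a3 and fall for Ccl2, Cxcl1 and Vegfa.

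The 10 lower genes chosen by the same rule included the chemokines Ccl2 and Cxcl1. Ccl2, which attracts monocytes, was at 74.1, 283, 0, 4957, 0 and 146 CPM in members against 709, 1405, 1743, 15651, 6827 and 3558 CPM in the Cxcl2/Il1b neutrophils (log2 fold change -3.80 ± 0.55 SE, n = 6 libraries, adjusted p = 3.06e-05). It was lower in 6 of 6 libraries, with members of moderate replicate 2 far above the others. Cxcl1, a neutrophil chemokine, was at 102, 0, 117, 502, 239.8 and 753 CPM against 317, 953, 837, 2197, 7319.6 and 6099 CPM (log2 fold change -2.98 ± 0.40 SE, n = 6 libraries, adjusted p = 1.04e-05). Within each library the members were lower, although the ranges overlapped across libraries. The comparison cells had been chosen for Cxcl2 and Il1b UMIs, and without that requirement the log2 fold changes were -3.69 and -2.92 for Ccl2 and Cxcl1.

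Vegfa, a growth factor for vessels induced by low oxygen, was at 27.1, 141, 117, 62.7, 112 and 97.2 CPM against 119, 229, 418, 457, 906 and 151 CPM (log2 fold change -2.05 ± 0.34 SE, n = 6 libraries, adjusted p = 1.13e-04). The other lower genes were Hes1 (-2.41), a Notch target, Stmn1 (-2.36), which destabilizes microtubules, Cd274 (-2.27), the checkpoint ligand PD-L1, Il33 (-2.24), an alarmin, Vcan (-1.97), a matrix proteoglycan, LOC100359583 (-1.96) and Csrp1 (-1.96). All were lower in 6 of 6 libraries, with adjusted p between 2.24e-05 and 0.00231 in edgeR. Members of mild replicate 1 had only 14149 UMIs outside the selecting genes, so 1 UMI there was 70.7 CPM and values of 0 in members are shallow. Without sham replicate 1 the 10 higher genes kept their calls, with log2 fold changes from 3.12 for Pglyrp1 to 4.71 for Camp. Of the 10 lower genes 9 kept theirs, from -1.95 for Csrp1 to -4.30 for Stmn1, with Ccl2 at -4.12 and Cxcl1 at -3.57. Vcan lost its call, with a log2 fold change of -1.52 (adjusted p = 0.0775).

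Of 10 specific granule genes 9 were tested, and 7 were higher and 0 lower, beside 16.2% and 15.0% of all genes tested. The tally includes Ngp, whose level in the comparison cells was 0 in every injured library tested, so that its direction there was fixed by the members. Without it 6 of 8 were higher and 0 lower, with a median log2 fold change of 2.44 beside -0.06 for all genes tested. With Ngp, 6 of 8 were higher without sham replicate 1. Camp and Hp were among them. Olfm4, a marker of a neutrophil subset, was at 0 to 816 CPM against 0 to 36.1 CPM (log2 fold change 4.67 ± 0.50, adjusted p = 7.74e-07 in edgeR, n = 6). Olfm4 was higher in 4 libraries and lower in the other 2, mild replicate 1 and moderate replicate 2, where members had 0 UMIs. Lcn2 was at 0 to 6874 against 7.30 to 177 CPM, higher in 5 of 6 libraries and 0 in mild replicate 1 (4.93 ± 0.80, adjusted p = 9.71e-05 in edgeR, n = 6). Ngp, a neutrophil granule protein related to cathelicidins, was at 0 in the comparison cells of the 5 injured libraries, so no fold is given. It was called by edgeR (adjusted p = 9.69e-05) and not by DESeq2 (adjusted p = 0.195). Chi3l1, a chitinase-like protein, and Cybb were called as well and lost the call with some libraries left out, with adjusted p up to 0.131 without sham replicate 1 and 0.433 without severe replicate 1. Fcnb (-1.34) and Ltb4r (0.08) were not called. Without the requirement on Cxcl2 and Il1b in the comparison cells 6 were higher and 1 lower, the latter Fcnb with a log2 fold change of -2.04 (adjusted p = 0.0435 in edgeR).

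Of the 10 gelatinase granule and secretory genes, 8 were tested, 5 were higher and 0 lower, beside 16.2% and 15.0% of all genes tested. Cd177 among them was likewise at 0 in the comparison cells of every injured library tested, and without it 4 of 7 were higher and 0 lower (median 1.16). Besides Pglyrp1, Anxa1 and Padi4 they were Mmp9, the gelatinase that names the granule, at 376 to 812 against 151 to 354 CPM (1.16 ± 0.27, adjusted p = 0.00230 in edgeR, n = 6), and Cd177. Cd177, a surface protein of blood neutrophils, was at 89.9, 0, 525, 0, 671 and 219 CPM in members and at 0 in the comparison cells of the 5 injured libraries. It was called by edgeR (adjusted p = 1.64e-06) and not by DESeq2 (adjusted p = 0.0856). Slpi (-0.23), Lyz2 (0.49) and Itgam (0.82) were not called. Padi4, which is not a granule protein, is counted among both the 5 and the 4 higher genes of this list. Of 7 azurophil genes 2 were tested, and Elane (-0.90, adjusted p = 0.0527) and Ctsc (0.84, adjusted p = 0.0758) were not called in edgeR.

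Of 16 surface receptor genes of mature neutrophils 11 were tested, apart from Csf3r and Cxcr2, which chose the comparison cells. There were 6 higher and 0 lower (median 0.74), beside 16.2% and 15.0% of all genes tested. Without sham replicate 1, 2 of the 11 were higher, beside 10.6% of all genes tested there. Fpr2, a receptor for formyl peptides, was at 0 to 352 against 0 to 59.3 CPM (3.60 ± 0.53, adjusted p = 3.42e-05 in edgeR, n = 6), higher in 4 of 6 libraries and 0 in mild replicate 1 and moderate replicate 2. Trem1, which amplifies inflammatory signals, was at 565 to 1247 against 209 to 650.1 CPM (1.14 ± 0.24, adjusted p = 0.00155 in edgeR, n = 6). Both kept the call with each library left out. With each of the 6 libraries left out in turn, Itgb2 lost its call 2 times, Clec4d 4 times and Tlr2 6 times. The highest adjusted p of Itgb2 in edgeR was 0.0756, without moderate replicate 2. That of Clec4d was 0.253 and that of Tlr2 0.193, both without moderate replicate 1.

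The NADPH oxidase makes the superoxide of the neutrophil burst, and 5 of its 6 genes were tested. There were 4 higher and 0 lower (median 0.93), beside 16.2% and 15.0% of all genes tested. Without sham replicate 1, 2 of the 5 were higher, beside 10.6% of all genes tested there. Rac2, its small GTPase, was at 627 to 1749 against 285 to 862 CPM (1.31 ± 0.24, adjusted p = 3.86e-04 in edgeR, n = 6) and kept the call with each library left out. Ncf1, Cyba and Cybb lost it with 1, 3 and 4 of the 6 libraries left out in turn. Their highest adjusted p in edgeR was 0.0555 without sham replicate 1, 0.128 without moderate replicate 1 and 0.433 without severe replicate 1. Ncf4 was not called (0.09).

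Inflammatory genes were called in both directions. Of 19 genes 11 were tested besides Cxcl2 and Il1b. There were 2 higher and 5 lower (median -0.79), beside 16.2% and 15.0% of all genes tested, so the higher share was near that of all genes. Without the requirement on Cxcl2 and Il1b 2 were higher and 3 lower, where 225 and 215 of all 1527 genes tested were called. Ccl3 was at 422, 2191, 1866, 9913, 2797 and 5733 CPM in members against 1320.4, 2219, 6601, 20416, 13587 and 13142 CPM, lower in 6 of 6 libraries (log2 fold change -1.36 ± 0.28 SE, n = 6 libraries, adjusted p = 9.79e-04). Cxcl3 was lower in 5 of 6 libraries (log2 fold change -1.84 ± 0.42 SE, n = 6 libraries, adjusted p = 0.00227). Nfkbia and Il1rn, the antagonist of the interleukin-1 receptor, were lower and lost the call without severe replicate 2 (adjusted p = 0.0955 and 0.203). Il1rn lost it with 2 of the 6 libraries left out in turn. Sod2, a mitochondrial enzyme against superoxide, and Osm, a cytokine, were higher and lost the call without moderate replicate 1 (adjusted p = 0.156 and 0.155). Sod2 lost it with 3 of the 6 libraries left out in turn and Osm with 2.

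Of 13 interferon response genes 6 were tested, 1 was higher and 0 lower (median 0.87), a share near the 16.2% of all genes tested that were higher, and without sham replicate 1 0 were called. Ifitm1, an antiviral membrane protein, was the gene called, with log2 fold changes of 1.07 (adjusted p = 0.0182) and, without sham replicate 1, 0.80 (adjusted p = 0.104) in edgeR. Isg15 was at 3631, 636, 1924, 314, 416 and 705 CPM in members against 930.3, 219, 860, 314, 606 and 702 CPM and was not called (0.74, adjusted p = 0.0821 in edgeR). It was highest in sham replicate 1 in both kinds of cell.

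Of 8 transcription factors of granulopoiesis 5 were tested and 1 was higher (median 0.78), a share near the 16.2% of all genes tested. This was Spi1, which encodes PU.1, at 434 to 1108 against 229 to 643 CPM (0.95 ± 0.26, adjusted p = 0.00887 in edgeR, n = 6), with adjusted p = 0.0604 without moderate replicate 1. Cebpe, a factor of granule gene expression, was at 12.7, 495, 117, 188, 336 and 219 CPM in members and was not called (0.78, adjusted p = 0.137 in edgeR). Gfi1 had 3 UMIs in sham replicate 1 and 1 in severe replicate 1.

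Proliferation markers were almost absent. Mki67, present in dividing cells, had 51 UMIs over the 2639 members of sham replicate 1 and 0 in members of the 5 injured libraries, and Top2a 19 and 1. Of 10 cell cycle genes 5 were tested, 1 was higher and 2 lower (median -0.81), beside 16.2% and 15.0% of all genes tested. Hmgb2, a chromatin protein, was at 777 to 3439.6 against 408 to 1284 CPM (1.46 ± 0.30, adjusted p = 0.00109 in edgeR, n = 6). Stmn1 and the tubulin Tuba1b were lower, Tuba1b with adjusted p = 0.0786 without severe replicate 2.

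Of the 6 other S100 genes 5 were tested, 1 was higher and 1 lower (median -0.52), shares near the 16.2% and 15.0% of all genes tested. S100a11 was at 7732, 1626, 4839, 4706, 5403 and 3353 CPM in members against 2436, 1757, 2348, 1840.4, 2582 and 1638 CPM, higher in 5 of 6 libraries (log2 fold change 1.03 ± 0.27 SE, n = 6 libraries, adjusted p = 0.00606). S100a10, the partner of annexin A2, was at 127, 495, 0, 62.7, 176 and 48.6 CPM against 524, 1182, 511, 699, 325 and 159.7 CPM, lower in 6 of 6 (log2 fold change -1.85 ± 0.33 SE, n = 6 libraries, adjusted p = 2.83e-04). Both kept their calls with each library left out. S100a4, S100a6 and S100b were not called.

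Of 9 glycolysis and hypoxia genes tested, 1 was higher and 3 lower (median -0.03), beside 16.2% and 15.0% of all genes tested. Slc2a3 was higher. Slc2a1, another glucose transporter (-1.91 ± 0.59, adjusted p = 0.0182 in edgeR, n = 6), was lower, as were Bnip3, a mitochondrial protein of hypoxia, and Vegfa. Slc2a1 and Bnip3 were too low to be tested without sham replicate 1, where Vegfa kept its call. The glycolytic enzymes Ldha (-0.03), Eno1 (-0.01), Pgk1 (0.48) and Pkm (0.69) were not called.

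Genes of other cell types were lower or not called in members. Of 4 oligodendrocyte genes tested 3 were lower and of 2 monocyte genes 2 were lower (medians -1.85 and -2.28). Without sham replicate 1 Mag was too low to be tested, and Cnp, Vcan and Fn1 were not called (adjusted p from 0.0775 to 0.229 in edgeR). The monocyte genes were Vcan and Fn1, the latter at 19.2 CPM in members of sham replicate 1 against 315. Of the erythroid list 3 features were tested, and of the macrophage and microglia, B cell and platelet lists 1 gene each, with 0 called by edgeR. No T cell, astrocyte, endothelial or eosinophil and mast cell gene was abundant enough to be tested. Their part in the other differences was not tested.

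A minority of members carried much more Camp and Ngp. With at least 10 UMIs of the pair, a limit set after the values were seen, there were 166 of 2639 members in sham replicate 1 (6.29%), 2 of 25 in moderate replicate 1, 10 of 19 in severe replicate 1 (52.6%) and 5 of 18 in severe replicate 2 (27.8%). The single member of sham replicate 2 and the members of both mild libraries and of moderate replicate 2 included 0. The limit was an absolute number of UMIs without thinning, so deeper cells passed it more easily, and shares between libraries of different depth are not compared. The cells past it had medians of 6424 against 3369 UMIs in sham replicate 1, 7412 against 2440 in severe replicate 1 and 4114 against 2101 in severe replicate 2. Their S100a8 and S100a9 share was also higher, 44.6% against 33.8% in sham replicate 1.

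Ngp was concentrated in few cells. Sham replicate 1 had 357 Ngp UMIs in 70 members, severe replicate 1 had 1841 in 7 members, and severe replicate 2 had 486 in 2 members, 481 of them in a single cell. The level was 53.2 CPM in sham replicate 1, 29429 in severe replicate 1 and 11807 in severe replicate 2. With 19 and 18 members, the severe libraries' Ngp level rested on these cells. Mpo had 0 UMIs in all of them.

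Other genes differed between the Camp- and Ngp-rich members and the rest, as values without a test. In severe replicate 1 Anxa1 stood at 20062 against 2012 CPM, Lcn2 at 9316 against 0 and Cd177 at 909.9 against 0. Ifit3, an interferon target, stood at 65.0 against 4329 CPM there and at 152 against 3032 CPM in severe replicate 2. In sham replicate 1 the differences were smaller, with Anxa1 at 13226 against 7602 CPM, Lcn2 at 2428 against 328 and Ifit3 at 699.7 against 2146. Mki67 stood at 0 in both kinds of members of the severe libraries.

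**Figure D5:**
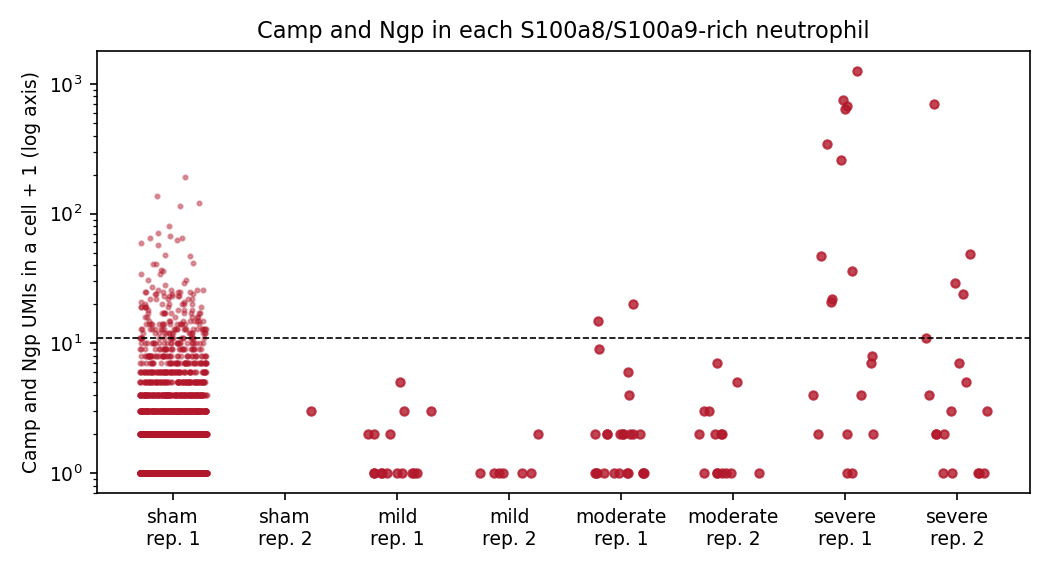
UMIs of Camp and Ngp together in each S100a8/S100a9-rich neutrophil, plus 1, on a log axis, by library, with the dashed line at 10 UMIs. Most cells lie below the line in every library but severe replicate 1, where 10 of 19 cells are at or above it.

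When members with at least 10 Camp and Ngp UMIs were left out, severe replicate 1 dropped below 10 members and out of the fit, and over the other 5 libraries 162 genes were higher and 225 lower. Without severe replicate 1 alone 205 were higher and 236 lower. Camp kept its call with a log2 fold change of 2.02 (adjusted p = 3.17e-04), Hp with 2.99 (adjusted p = 4.38e-06), Anxa1 with 2.75 (adjusted p = 2.54e-06) and Pglyrp1 with 2.53 (adjusted p = 2.54e-06) in edgeR. The log2 fold change of Lcn2 was 1.22 (adjusted p = 0.0669), against 3.46 (adjusted p = 1.21e-06) without severe replicate 1 alone. The log2 fold change of Mmp9 was 0.68 (adjusted p = 0.0982), against 1.17 (adjusted p = 0.00239) without that library. The log2 fold change of Cybb was -0.01 (adjusted p = 0.992), and it was not called without that library either (0.37, adjusted p = 0.433). This alternative was added after the data were seen.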

How the data were processed

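The authors aligned the reads with Cell Ranger to Rnor_6.0 and deposited a matrix of UMI counts per gene and cell for each library. The matrix headers name version 5.0.1, and the submitters' notes also name Seurat. The files held 68658 cells and 32623 genes. No further normalization had been applied. Members, comparison cells and gene lists were chosen with earlier results of these data known. Doublets were not removed. Scrublet placed 222 members (8.10%) among the highest 7.7% of scores of their libraries. They were 215 of 2639 members in sham replicate 1, 7 of 19 in severe replicate 1 and 0 in the other libraries.

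Counts were summed per library and kind of cell, the 4 selecting genes were left out, and edgeR 4.0.16 (quasi-likelihood test, TMM factors, low-count filter, Benjamini-Hochberg adjustment) was fitted with the library as a block. This block pairs cells of the same library. DESeq2 1.42.0 was an alternative. The genes that chose either kind of cell (S100a8, S100a9, Retnlg, Mmp8, Csf3r, Cxcr2, Cxcl2, Il1b, Apoe and C1q genes) were not tested. The share of members was tested by exact permutation over libraries. The method was tested on simulated data. The genes named by rule were the 10 highest and the 10 lowest log2 fold changes among called genes with a mean of at least 100 CPM and the same direction in every library. Genes of the lists were named with their values. Nothing used here gives a batch. Gapdh was not analysed here, and some genes of the lists are not reported here. Python 3.11.15 and R 4.3.3 were used.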

Additional observations from a re-analysis of the deposited data

How the results depend on the processing

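The share difference between sham and injured libraries was 12.1 percentage points and reversed to -0.183 without sham replicate 1; leaving out each library in turn gave -0.183 to 24.4. With the replicate number as a block the difference stayed at 12.1 with an exact permutation p = 0.25, where 0.0625 was the smallest possible, and nothing in the labels says that equal numbers pair the libraries. The number of members ranged from 2361 to 3025 over the other limits on S100a8 and S100a9, Retnlg and Mmp8, mitochondrial share, depth and doublet score, and was 101 without sham replicate 1.

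Leaving out each library in turn gave 121 to 235 genes higher and 88 to 339 lower in edgeR, against 246 and 228 with all 6. The lowest numbers came without sham replicate 1, and 149 were lower without severe replicate 2. There were 76 higher and 51 lower genes among cells with 500 to 2000 UMIs over 5 libraries, since severe replicate 1 dropped out, 67 and 22 without the library block, and 416 and 3460 with no filter on low counts. With Camp- and Ngp-rich members left out, and severe replicate 1 with them, 162 were higher and the log2 fold change of Cybb turned to -0.0055. Without severe replicate 1 alone 205 were higher and 236 lower, and that of Cybb was 0.37. DESeq2 called 210 and 194. The causes were not tested. The alternative with at least 20 cells of both kinds left 2 libraries and was not run. In mild replicate 1 the members held 14149 UMIs outside the selecting genes, so low genes could not be measured there.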

Other observations

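Hspa1b, an inducible heat shock chaperone, lay outside the lists and was picked after its values were seen, so it carries no test. It stood at 8574 CPM in members of sham replicate 1. In the other 5 libraries with at least 10 members it stood at 0, 58.3, 314, 1694 and 72.9 CPM. In sham replicate 1 the Cxcl2/Il1b neutrophils stood at 5736, T cells at 3138 and B cells at 4651 CPM.

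Cells with at least 12% S100a8 and S100a9 UMIs and fewer than 2 of Retnlg and Mmp8 were counted as well. There were 579 in sham replicate 1, 0 in sham replicate 2, 172 and 53 in mild, 94 and 21 in moderate and 51 and 31 in severe replicates. In each of the 6 injured libraries they outnumbered the members. Mpo had 904 UMIs over all kept cells of severe replicate 1, where 4 cells had at least 2, and 0 in the members of that library.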
